A study of Mus musculus with 35 samples.

Results

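The Pax family was measured in bulk RNA-seq of 6 tissues from mouse embryos. Its members were chosen by name: Pax1, Pax2, Pax3, Pax5, Pax6, Pax7, Pax8 and Pax9, 8 of the 30723 gene symbols in the deposited tables. All 8 had values in all 35 libraries, and FPKM (fragment counts normalized for the length of the transcript and the size of the library) was summed over the transcripts of each symbol. The embryos were wild-type CD1 mice at embryonic day 11.5, with no treatment or mutation in any group. The tissues were dorsal brain (dB, 6 libraries), ventral brain (vB, 6), the frontonasal prominence (FNP, 6), the mandibular prominence (MNP, 6), the maxillary prominence (MXP, 5) and limb (6). The labels call both brain tissues neural tube. The methods describe them as forebrain and midbrain, and give each library as tissue pooled from several embryos. The prominences are the outgrowths of neural crest mesenchyme, covered by ectoderm, that form the face.

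Pax genes encode transcription factors that bind DNA through a paired domain. Pax1 and Pax9 carry a paired domain and no homeodomain, and act in sclerotome, pharyngeal pouches and facial mesenchyme. Pax2, Pax5 and Pax8 carry a partial homeodomain and are known from the midbrain-hindbrain boundary, the ear and the kidney. Pax3 and Pax7 carry a full homeodomain and mark the dorsal neural tube, neural crest and muscle progenitors, and Pax6 is the regulator of eye, forebrain and nasal placode development.

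The paired box is conserved, so the coding sequences were compared for stretches that reads could not tell apart. In the GENCODE annotation of GRCm38, the longest exact run shared by any of the 28 pairs of members was 27 bases, against the 75-base reads given in the methods. The longest run of each of the 3 closest pairs is shown in capitals, because these are the stretches where assignment of a read could be least certain.
Pax2 and Pax8: GGCAGGTACTACGAGACTGGCAGCATC
Pax1 and Pax9: ATCCTGGCGCGCTACAACGAGACCGG
Pax3 and Pax7: CTGGAAGTGTCCACCCCTCTTGGCCA
No pair shared a run as long as a read, and the median over the 28 pairs was 12.5 bases. Mismatches that an aligner tolerates were not considered. In the same annotation Pax1, Pax6 and Pax8 lie on chromosome 2, Pax5 and Pax7 on chromosome 4, and Pax3, Pax9 and Pax2 on chromosomes 1, 12 and 19.

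The coverage that went with 1 FPKM, a measure of depth, ranged from 2.70 to 5.51 over the 35 libraries. A library had 11742 to 12955 genes at 1 FPKM or more. Neural progenitor and neuron markers were high in brain, and the limb Hox and Tbx genes were high in limb. Summed markers listed for dorsal brain did not set brain apart. Their median was 103 FPKM in dB and 34.4 FPKM in vB, against 36.8 FPKM in limb to 74.1 FPKM in MXP. Those listed for the maxillary prominence had a median of 248 FPKM in MNP and 200 FPKM in MXP. Markers of neighbouring tissues also varied between libraries of a tissue. The summed level of 5 mesenchyme markers ranged from 123 to 255 FPKM in dB and from 4.21 (replicate 6) to 227.9 FPKM (replicate 5) in vB. The ventral brain gene Nkx2-1 had 6.93 FPKM in vB replicate 4, against 39.4 to 102 FPKM in the other vB libraries. In FNP replicates 4 and 5 Nkx2-1 had 44.7 and 15.03 FPKM, against 0.0373 to 1.12 FPKM in the other FNP libraries, and MXP replicate 5 had 7.92 FPKM.

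The make-up of the summed Pax level differed between brain and the other tissues. Pax6 led in all 12 brain libraries, with 76.1% of the summed mean level in dB and 81.9% in vB. In FNP Pax9 led in all 6 libraries, with 52.6%, followed by Pax3 with 29.3%. In MNP the 3 genes Pax9 (37.9%), Pax1 (31.9%) and Pax3 (28.5%) held nearly all of it, as they did in limb (29.8, 42.8 and 23.6%). In MXP Pax1 had the largest share of the mean, 55.8%, but it led in replicates 2, 3 and 6, while Pax3 led in replicates 1 and 5. In limb Pax1 led in replicates 1, 4 and 5 and Pax9 in replicates 2, 3 and 6. The family summed to 56.4 ± 8.07 FPKM in dB and to 8.73 ± 3.32 FPKM in limb, the lowest of the 6 tissues (SD, n = 6 each). In a bulk library fewer cells of a type and less RNA per cell cannot be told apart.

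**Figure D1:**
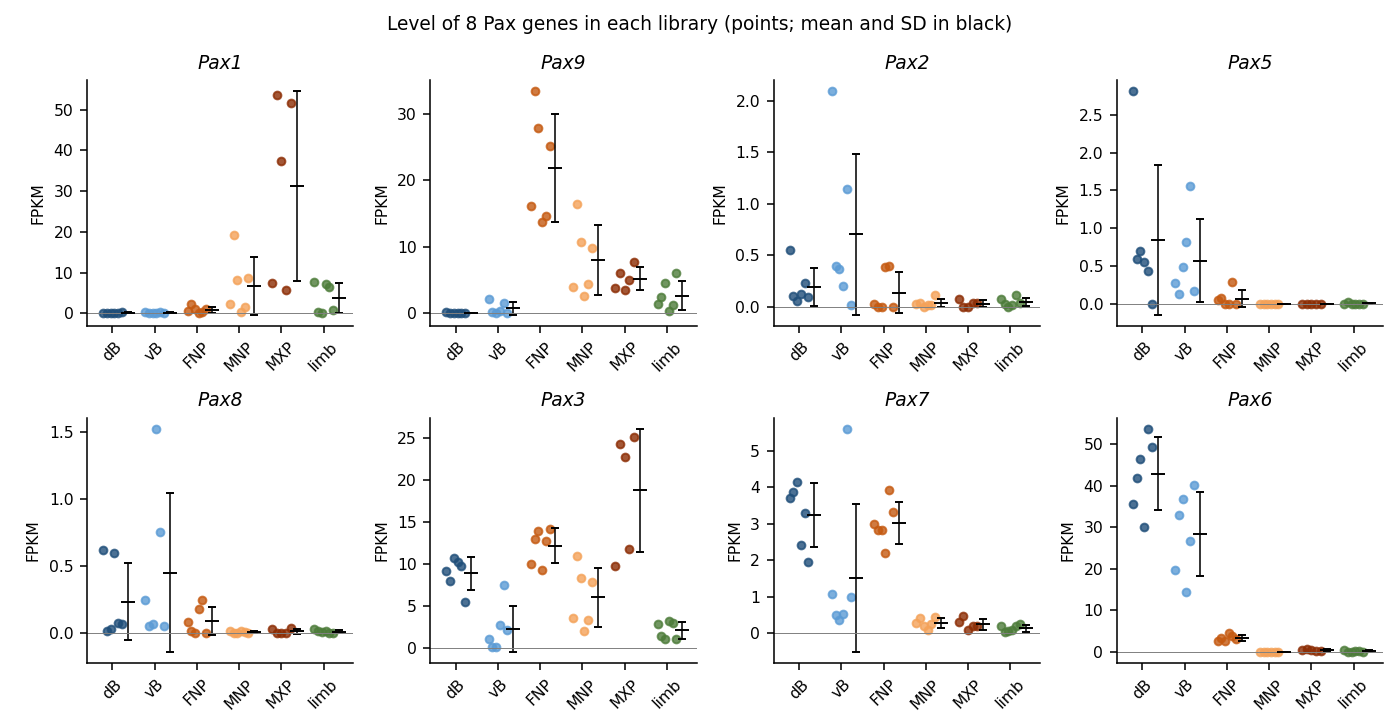
Level of each Pax gene in FPKM (vertical axis, scaled per panel) in each library (points) of dB, vB, FNP, MNP, MXP and limb, with the mean and SD of each tissue in black. Pax6 lies between 14.4 and 53.7 FPKM in the brain libraries and at most at 4.57 FPKM elsewhere, and Pax1 in MXP falls into values of 5.69 and 7.39 FPKM and values from 37.3 to 53.7 FPKM.

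Differences were tested in limma on log2(FPKM + 1), and a gene was called at a Benjamini-Hochberg adjusted p under 0.05 over all 13934 tested genes with at least a 2-fold change. Fold changes are on that scale, which understates the change of low genes. Pax1, Pax9, Pax3, Pax7 and Pax6 reached a mean of 1 FPKM in some tissue and were tested, and all 5 were called between at least 1 of the 15 pairs of tissues, against 21.3% of all tested genes. Pax2, Pax5 and Pax8 did not reach that level. Between neural tissue (dB and vB) and facial tissue (FNP, MNP and MXP) 4 of the 5 tested members were called, against 11.3% of all tested genes: Pax6 was higher, and Pax1, Pax9 and Pax3 were lower. For Pax3, dB was not called against any single prominence. Between neural tissue and limb 4 were called, against 12.4%: Pax6 and Pax7 were higher, and Pax1 and Pax9 lower. Between facial tissue and limb 2 were called, Pax9 and Pax3, both higher, against 2.62%. With 5 members tested these shares are coarse.

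**Figure D2:**
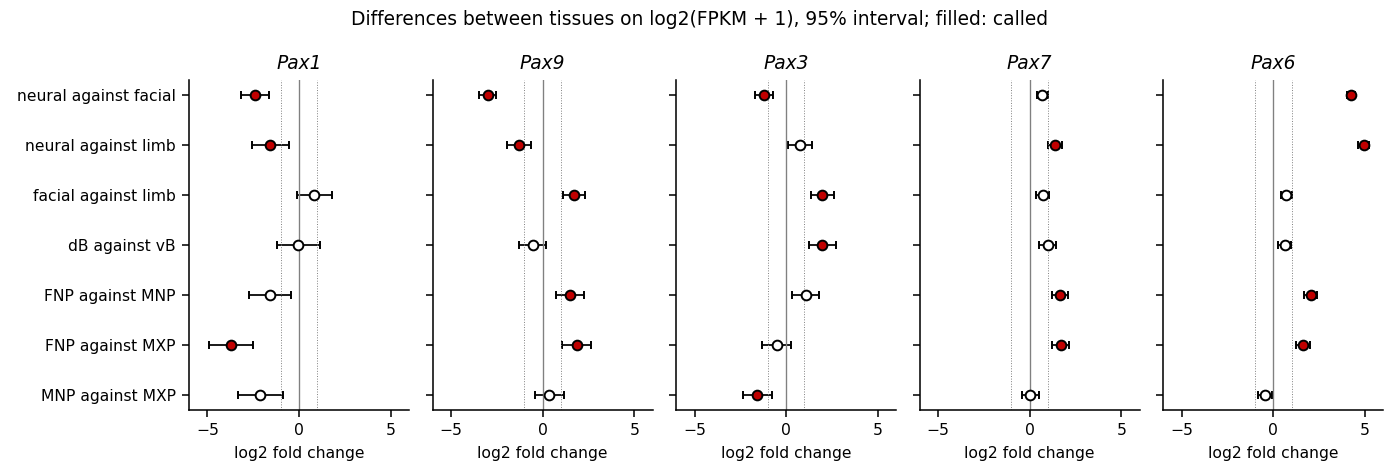
Log2 fold change (horizontal axis, on log2(FPKM + 1)) of the 5 tested Pax genes in 7 comparisons (rows, named as first tissue against second), with the 95% interval; filled points were called. Pax6 has the largest difference between neural and facial tissue (4.24), and Pax9 the largest in the opposite direction (−3.01).

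Pax1, which acts with Pax9 in sclerotome and pharyngeal pouch development, had its highest mean in MXP. Its lowest, median and highest level was 0.0200, 0.772 and 2.21 FPKM in FNP. In MNP they were 0.407, 5.19 and 19.2 FPKM. The 5 MXP libraries had 7.39, 53.7, 37.3, 5.69 and 51.6 FPKM, all above every FNP library, while they overlapped with MNP. In limb the values were 0.0942, 3.55 and 7.78 FPKM, and no brain library exceeded 0.400 FPKM. MXP overlapped with limb as well. Replicates 1 and 5 had 7.39 and 5.69 FPKM in MXP and 7.78 and 6.38 FPKM in limb. Replicates 2, 3 and 6 had 37.3 to 53.7 FPKM in MXP and 0.0942 to 0.725 FPKM in limb. MNP lay below limb in replicates 1, 4 and 5 and above it in replicates 2, 3 and 6. FNP was lower than MXP (log2 fold change −3.72, SE 0.60, limma adjusted p = 4.5e-05), and MXP was higher than limb (2.78, SE 0.60, limma adjusted p = 0.0014, with 3.34% of all tested genes called). Neural tissue was lower than facial tissue (−2.40, SE 0.37, limma adjusted p = 1.6e-06). By mean log2 level the order was MXP, MNP, limb, FNP, vB and dB, and no neighbours in that order differed past the threshold. MNP against MXP missed it (−2.12, 95% interval −3.34 to −0.90, limma adjusted p = 0.057), though it was called with quantile normalization (limma adjusted p = 0.046) and without MNP replicate 2 or 3, MXP replicate 1 or 5 or limb replicate 1 or 3, and the intervals of FNP against limb (−2.10 to 0.23) and MNP against limb (−0.50 to 1.82) contained 0. dB against limb (−1.59, limma adjusted p = 0.028, 11.7% of all tested genes called) and vB against limb (−1.55, limma adjusted p = 0.027, 13.6% called) lost their calls when limb replicate 1, 4 or 5 was left out (limma adjusted p from 0.077 to 0.086) and with no filter on low values (0.066 and 0.065). Neural tissue against limb was not called within replicates 1 to 3 (−1.07, limma adjusted p = 0.25). Within replicates 4 to 6 alone, which share most of their sequencing run, FNP against MXP (−3.75, limma adjusted p = 0.066) and MXP against limb (2.00, limma adjusted p = 0.55) were not called. MXP has no replicate 4, so every fit within replicates 4 to 6 used only its replicates 5 and 6.

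Pax9, needed for palate, tooth and limb skeletal development, was the leading member of FNP. The lowest, median and highest level was 13.6, 20.7 and 33.4 FPKM in FNP and 2.56, 7.07 and 16.4 FPKM in MNP. The 5 MXP libraries had 3.73, 6.05, 3.43, 5.03 and 7.66 FPKM, and limb had 0.268, 1.87 and 5.95 FPKM. The lowest FNP library lay above all MXP and limb libraries and below the highest MNP library. FNP was higher than MNP (1.49, SE 0.37, limma adjusted p = 0.0059) and than MXP (1.85, SE 0.38, limma adjusted p = 0.0013), while MNP against MXP was not called (0.36, 95% interval −0.42 to 1.14). In dB Pax9 reached at most 0.104 FPKM, but vB had 2.15 and 1.56 FPKM in replicates 1 and 5, against 0 to 0.278 FPKM in the other vB libraries. The same libraries had 20.1 and 18.2 FPKM of summed surface epithelium markers, against 1.81 to 2.78 FPKM in the other vB libraries. They also had 27.0 and 60.3 FPKM of the mesenchyme marker Twist1, against 0.397 to 9.89 FPKM in the other vB libraries. Summed mesenchyme markers were 126 and 228 FPKM there, but also 126 FPKM in vB replicate 4. The part of epithelium or mesenchyme in the vB value of Pax9 was not tested. Facial tissue was higher than limb (1.71, SE 0.30, limma adjusted p = 8.7e-05). By mean log2 level the order was FNP, MNP, MXP, limb, vB and dB, and beside FNP and MNP only vB and limb were neighbours that differed past the threshold (−1.03, limma adjusted p = 0.022), a call lost without vB replicate 2, 3, 4 or 6 or limb replicate 2, 3 or 6 (limma adjusted p from 0.035 to 0.079, each with a fold change under 2). FNP against MNP was not called within replicates 1 to 3 (1.36, limma adjusted p = 0.14) or 4 to 6 alone (1.62, limma adjusted p = 0.24), and FNP against MXP not within replicates 4 to 6 (1.33, limma adjusted p = 0.79). With 0.1 added in place of 1 both calls were lost (limma adjusted p = 0.12 and 0.061), and within replicates 4 to 6 so were those of facial tissue against limb (1.79, limma adjusted p = 0.054) and neural tissue against limb (−1.11, limma adjusted p = 0.12).

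Between FNP and MXP, then, Pax1 was lower and Pax9 higher, and both differences were called. FNP had 0.860 ± 0.787 FPKM of Pax1 and 21.8 ± 8.13 FPKM of Pax9 (SD, n = 6), MNP had 6.71 ± 7.04 and 7.95 ± 5.31 FPKM (SD, n = 6), and MXP had 31.1 ± 23.3 and 5.18 ± 1.74 FPKM (SD, n = 5). Pax9 exceeded Pax1 in all FNP libraries. In MXP Pax1 exceeded Pax9 in all 5 libraries, by 5.69 against 5.03 FPKM in replicate 5 and by 53.7 against 6.05 FPKM in replicate 2.

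Pax2, Pax5 and Pax8, which act together in setting up the midbrain-hindbrain boundary, were low in all tissues. Pax2 had its highest mean in vB, 0.702 ± 0.780 FPKM (SD, n = 6), Pax5 in dB, 0.847 ± 0.992 FPKM (SD, n = 6), and Pax8 in vB, 0.451 ± 0.592 FPKM (SD, n = 6). Single libraries set these means. Without dB replicate 1 the dB mean of Pax5 was 0.455 FPKM, below the vB mean of 0.572 FPKM. Without vB replicate 4 the vB mean of Pax8 was 0.236 FPKM, against a dB mean of 0.235 FPKM, and without vB replicate 1 that of Pax2 was 0.425 FPKM. Pax5 was listed at 0 in all MNP and MXP libraries and in 5 of the 6 limb libraries. With all tissue means under 1 FPKM, no difference of theirs could reach the fold required for a call on the log2(FPKM + 1) scale, so only p-values are given. In a limma fit with no filter on low values, 19 of their 54 tests had an adjusted p under 0.05 and 23 an unadjusted p under 0.05. These tests are overlapping contrasts on the same libraries. No share over all genes stands beside the counts, so they do not set these genes apart from others. The smallest adjusted p was that of Pax5 between neural and facial tissue (0.64 on the log2 scale, SE 0.12, limma adjusted p = 0.00011). Pax5 had 0.71 ± 0.78 FPKM in neural tissue (SD, n = 12) and 0.024 ± 0.072 FPKM in facial tissue (SD, n = 17). For each of them the SD over the vB libraries was larger than the difference between the dB and vB means. In dB the libraries had 2.81, 0.588, 0.703, 0.547, 0.435 and 0 FPKM of Pax5, replicates 1 to 6 in order. In vB they had 0.278, 0.126, 0.481, 0.812, 1.56 and 0.174 FPKM. Pax8 was highest in vB replicates 4 (1.53 FPKM) and 5 (0.758 FPKM) and in dB replicates 1 (0.624 FPKM) and 4 (0.595 FPKM), and at most 0.244 FPKM in the other brain libraries.

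The libraries with the most Pax8 were those with the most En2, a homeobox gene of the midbrain and anterior hindbrain. En2 had 16.4 and 23.8 FPKM in vB replicates 4 and 5 and 16.9 and 11.2 FPKM in dB replicates 1 and 4, against 0 to 4.38 FPKM in the other brain libraries. Pax5 was also highest in dB replicate 1 and vB replicate 5. Pax2 followed another order, with 2.09 FPKM in vB replicate 1, where En2 was 0.0719 FPKM, and 1.15 FPKM in vB replicate 5. How much midbrain each dissection held was not tested. En2 was chosen from the list of midbrain-hindbrain boundary genes for this comparison after its values were seen. Other genes of that list followed it in part. In vB, En1 and Wnt1 were also highest in replicates 4 and 5. In dB, En1 was higher in replicate 2 (2.07 FPKM) than in 4 (1.82 FPKM), and Wnt1 in 5 (5.16 FPKM) than in 1 (5.03 FPKM). Fgf8 had 8.95 and 8.35 FPKM in dB replicates 5 and 6, against 7.61 and 6.55 FPKM in 1 and 4. In vB it was highest in replicate 1 (8.74 FPKM).

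**Figure D3:**
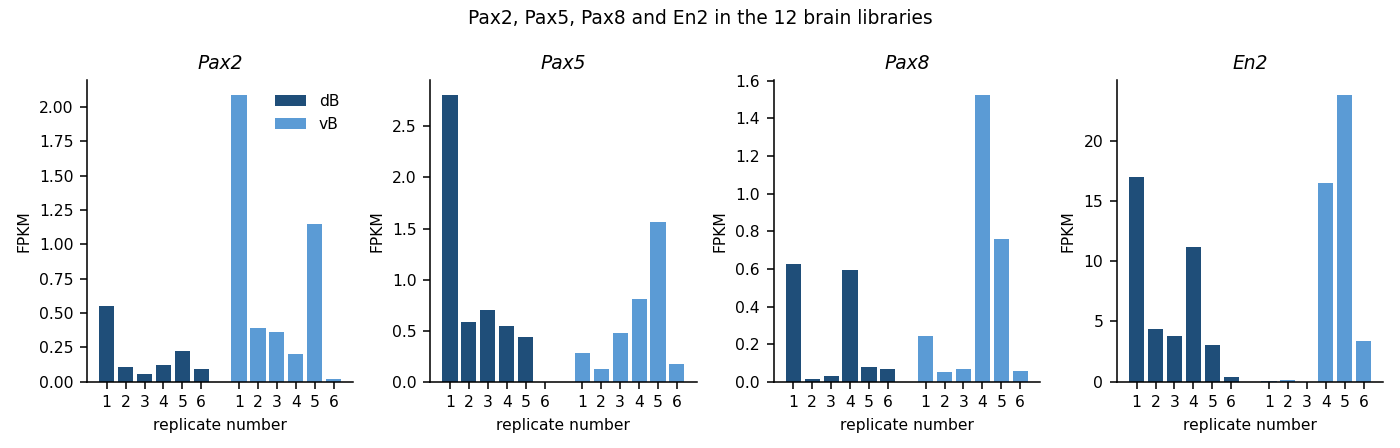
Pax2, Pax5, Pax8 and En2 in FPKM (vertical axis, scaled per panel) in the 6 dB and 6 vB libraries by replicate number (bars). Pax8 and En2 are both high in dB replicates 1 and 4 and vB replicates 4 and 5, while Pax2 is highest in vB replicate 1 (2.09 FPKM).

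Pax3, a regulator of the dorsal neural tube, neural crest and migrating muscle progenitors, was found in every tissue. The lowest, median and highest level was 5.39, 9.46 and 10.7 FPKM in dB and 0.0885, 1.52 and 7.41 FPKM in vB. It was 9.28, 12.8 and 14.2 FPKM in FNP and 1.99, 5.73 and 10.9 FPKM in MNP. The MXP libraries had 9.77, 24.3, 22.7, 11.8 and 25.1 FPKM, and limb had 1.00, 2.09 and 3.16 FPKM. Every FNP and MXP library lay above every limb library, whereas dB and vB overlapped through vB replicate 5 alone. By mean log2 level the order was MXP, FNP, dB, MNP, limb and vB, with no neighbours differing past the threshold. MNP against limb missed it (1.09, limma adjusted p = 0.067), though it was called within replicates 1 to 3 (1.60, limma adjusted p = 0.018), without vB replicate 2 or 5 or MNP replicate 4 (limma adjusted p from 0.024 to 0.049), and without vB replicates 1, 4 and 5 (limma adjusted p = 0.016). Limb had a median of 29.2 FPKM of summed skeletal muscle progenitor markers, and MNP one of 25.8 FPKM. In limb the sum was highest in replicate 6 (88.0 FPKM), where Pax3 was 1.06 FPKM. It was lowest in replicate 4 (13.6 FPKM), where Pax3 was 3.16 FPKM. Lbx1, a factor of migrating limb muscle progenitors, had 4.56 ± 2.68 FPKM (SD, n = 6) in limb, and its part in the limb level of Pax3 was not tested.

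Pax3 was the 1 member called between the brain tissues, against 1.39% of all tested genes. dB was higher than vB (1.97, SE 0.37, limma adjusted p = 0.00066). Of the 5 mesenchyme markers 3 were also called higher in dB, Prrx1 (1.23, limma adjusted p = 0.0057), Col1a1 (2.37, limma adjusted p = 0.017) and Col3a1 (1.92, limma adjusted p = 0.044). Of 9 tested genes of the dorsal neural tube and neural crest, 3 were called higher in dB and 0 lower. They were Msx1 (2.10, limma adjusted p = 0.00015), Msx2 (2.40, limma adjusted p = 2.1e-05) and Wnt3a (2.14, limma adjusted p = 3.6e-09). The part of mesenchyme or of dorsal neural tube in the Pax3 difference was not tested. Replicates 4 to 6 alone gave 1.01 (limma adjusted p = 0.72). Without vB replicates 1, 4 and 5, the vB libraries with the most mesenchyme marker RNA and a choice made after the data were seen, it was 2.65 (limma adjusted p = 2.7e-06). Neural tissue was lower than facial tissue (−1.23, SE 0.24, limma adjusted p = 5.6e-05), which was not called within replicates 4 to 6 (−0.70, limma adjusted p = 0.098). That mean joins unlike tissues. vB was called lower than FNP (−2.40), MNP (−1.33) and MXP (−2.91, limma adjusted p from 1.7e-07 to 0.0035). dB was not called against FNP (−0.43, limma adjusted p = 0.43), MNP (0.64, 0.19) or MXP (−0.94, 0.061). With quantile normalization dB against MXP was called (−1.01, limma adjusted p = 0.041). Facial tissue was higher than limb (1.97, SE 0.30, limma adjusted p = 1.1e-05). Pax3 was also the 1 member called between MNP and MXP, against 1.03% (−1.57, SE 0.39, limma adjusted p = 0.018). That call was lost without MNP replicate 1, 4 or 5 or MXP replicate 2, 3 or 6 (limma adjusted p from 0.052 to 0.076), with 0.1 added in place of 1 (0.20), with no filter on low values (0.052), and within replicates 1 to 3 (0.21) or 4 to 6 (0.32).

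Pax7, the partner of Pax3 in the dorsal neural tube and in muscle stem cells, had its highest means in dB and FNP. The lowest, median and highest level was 1.95, 3.49 and 4.15 FPKM in dB and 0.358, 0.763 and 5.59 FPKM in vB. FNP had 2.21, 2.91 and 3.91 FPKM. No MNP, MXP or limb library exceeded 0.471 FPKM, so every dB and FNP library lay above all of them. dB did not differ from FNP past the threshold (0.06, 95% interval −0.39 to 0.51). FNP was higher than MNP (1.65, SE 0.22, limma adjusted p = 1.8e-06) and than MXP (1.68, SE 0.23, limma adjusted p = 3.9e-06), and the difference from MXP was not called within replicates 4 to 6 alone (1.77, limma adjusted p = 0.089). Neural tissue was higher than limb (1.38, SE 0.19, limma adjusted p = 3.0e-07). Its difference from facial tissue (0.68, SE 0.15, limma adjusted p = 0.00018) stayed under a fold of 2, and was called with 0.1 added in place of 1 (1.37, limma adjusted p = 3.8e-05).

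Between dB and vB the Pax7 difference lay at the threshold, and vB replicate 5 moved it most. That library had 5.59 FPKM, above all dB libraries, and the next vB library had 1.07 FPKM. With it dB against vB was 0.99 (SE 0.22, limma adjusted p = 0.0057), just under the fold required, and without it 1.32 (limma adjusted p = 2.1e-08). Without dB replicate 4 or 6 it was also called (1.04 and 1.08), as it was with 0.1 added in place of 1 (1.63, limma adjusted p = 0.013). The same library had the highest Pax3 level of vB (7.41 FPKM), and its summed mesenchyme markers were 227.9 FPKM. It also had 36.6 FPKM of Irx3, against 3.08 to 11.4 FPKM in the other vB libraries. The part of the dissection in these values was not tested.

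In the face the pair differed in level. FNP had 12.2 ± 2.05 FPKM of Pax3 and 3.01 ± 0.569 FPKM of Pax7 (SD, n = 6). MXP had 18.8 ± 7.35 FPKM of Pax3 and 0.247 ± 0.148 FPKM of Pax7 (SD, n = 5). For Pax3, FNP against MXP was not called (−0.51, 95% interval −1.29 to 0.28), and whether the 2 genes differ in this contrast was not tested.

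Pax6, the regulator of eye and forebrain development, had the highest level of the family in the brain. The lowest, median and highest level was 30.1, 44.2 and 53.7 FPKM in dB and 14.4, 29.8 and 40.1 FPKM in vB, with overlap between them. FNP had 2.56, 3.17 and 4.57 FPKM, above all MNP (at most 0.0614 FPKM), MXP (at most 0.742 FPKM) and limb libraries (at most 0.534 FPKM). No FNP library overlapped with the brain libraries. Neural tissue was higher than facial tissue (4.24, SE 0.11, limma adjusted p = 3.1e-24) and than limb (4.94, SE 0.15, limma adjusted p = 1.8e-23). dB against vB had an adjusted p under 0.05 but a fold change under 2 (0.63, SE 0.17, limma adjusted p = 0.028).

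The levels of Pax6 followed dB, vB, FNP, MXP, limb and MNP by mean log2 level, and both steps around FNP were called. vB was higher than FNP (2.70, SE 0.17, limma adjusted p = 4.6e-14, with 12.1% of all tested genes called), and FNP was higher than MXP (1.61, SE 0.18, limma adjusted p = 9.4e-08). The highest FNP values, 4.57 and 3.87 FPKM, were in replicates 4 and 5, the libraries with Nkx2-1. Summed neural progenitor markers were 162 and 124 FPKM there, against 32.5 to 48.1 FPKM in the other FNP libraries. The other 4 FNP libraries had 2.56 to 3.36 FPKM of Pax6. The neural progenitor sums were 14.3 to 21.4 FPKM in MNP, 16.7 to 46.2 FPKM in MXP and 5.25 to 23.4 FPKM in limb. Summed neuron markers were 79.9 to 114 FPKM in FNP, against 9.92 to 28.0 FPKM in MNP, 33.0 to 75.1 FPKM in MXP and 13.2 to 30.7 FPKM in limb. The part of neural tissue in the FNP level of Pax6 was not tested. In all, 3 members were called between FNP and MNP, against 2.68% of all tested genes, and they were Pax9, Pax7 and Pax6, each higher in FNP. Between FNP and MXP 4 were called, against 2.28%: these 3, again higher in FNP, and Pax1, which was lower. Both counts were the same without FNP replicates 4 and 5 and MXP replicate 5, an alternative chosen after the data were seen.

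The tables hold 10 transcripts of Pax6. A splice choice of this gene is exon 5a, which inserts residues into the paired domain and changes the DNA sequence it recognises. It is a 42-base exon at chr2:105684751-105684792 on the plus strand of GRCm38, shown in capitals with the neighbouring exons in lower case, because some transcripts could be matched to annotated ones with or without it.
Pax6 with exon 5a: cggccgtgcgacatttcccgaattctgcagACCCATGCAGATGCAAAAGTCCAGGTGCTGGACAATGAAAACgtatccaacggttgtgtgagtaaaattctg
Pax6 without exon 5a: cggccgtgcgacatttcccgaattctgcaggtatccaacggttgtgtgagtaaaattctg
Transcripts with the exon held 24.3 ± 3.32% of Pax6 FPKM in dB and 26.7 ± 7.03% in vB (SD, n = 6 each), and 34.0 ± 14.7% in FNP (SD, n = 6). The total also holds transcripts that do not reach the exon or could not be matched. One unmatched transcript of 1909 bases took up to 27.7% of Pax6 in a vB library. The remainder is therefore not a measure of Pax6 without the exon. The libraries ranged from 21.5 to 29.8% in dB, from 14.2 to 33.7% in vB and from 12.3 to 51.6% in FNP, so all 3 ranges overlap. FNP had the lowest Pax6 level of the 3 tissues and the widest range of shares. Nearly all of the exon 5a level came from a single 2817-base transcript, which also has a start of its own, so its exon and its start cannot be told apart in these estimates. The share was not tested between tissues.

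**Figure D4:**
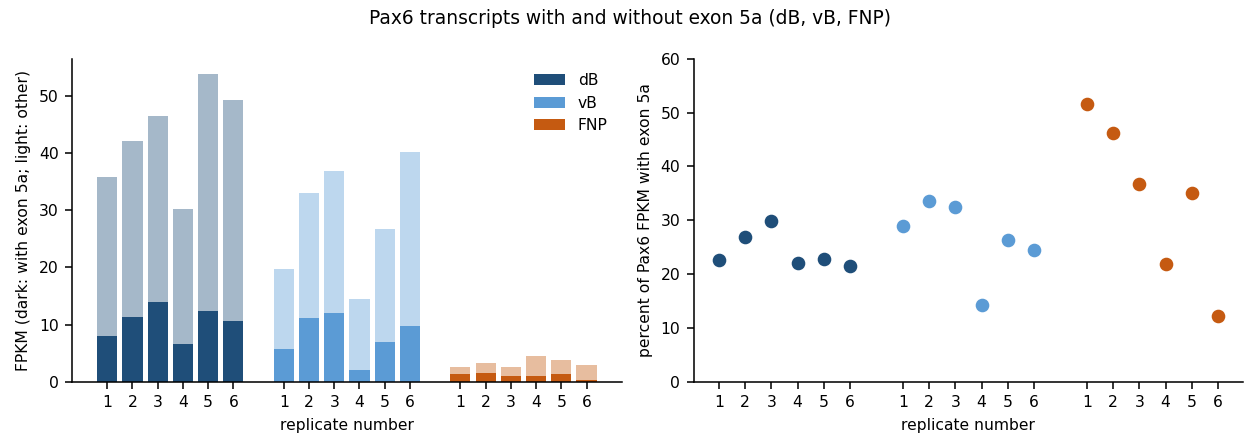
Left, Pax6 level in FPKM (vertical axis) in each dB, vB and FNP library by replicate number, with transcripts that hold exon 5a in the dark part of the bar. Right, these transcripts as a percentage of Pax6 FPKM, from 21.5 to 29.8% in dB, 14.2 to 33.7% in vB and 12.3 to 51.6% in FNP.

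Genes that work with the family were followed in 7 lists. Of 9 genes of the network of Eya and Dach factors and their partners, which act with Pax proteins in placodes and muscle, 5 were lower in neural than in facial tissue and Dach1 was higher (median log2 fold change −1.17, against −0.02 over all tested genes). The homeobox gene Six2 was lower (−3.00, SE 0.39, limma adjusted p = 7.9e-08). Eya1, a transcriptional coactivator, had 2.45 ± 0.165 FPKM in dB and 3.06 ± 2.00 FPKM in vB (SD, n = 6 each), against 30.7 ± 4.44 FPKM in FNP and 16.4 ± 1.89 FPKM in MNP (SD, n = 6 each) and 19.8 ± 2.98 FPKM in MXP (SD, n = 5). Its difference was −2.66 (SE 0.13, limma adjusted p = 2.6e-18). Of 10 forebrain genes of the Pax6 domain and its borders, 9 were higher in neural tissue and none was lower (median 2.92), led by the proneural factor Neurog2 (5.28, SE 0.16, limma adjusted p = 2.6e-23) and the LIM homeobox gene Lhx2 (4.48, SE 0.22, limma adjusted p = 5.0e-18). Tfap2c was the member not called.

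Of 8 midbrain-hindbrain boundary genes, 4 were higher and 2 lower in neural than in facial tissue (median 1.30). Otx2, which sets the anterior side of the boundary, was higher (4.34, SE 0.17, limma adjusted p = 1.4e-20), as was En2 (2.12, SE 0.37, limma adjusted p = 9.6e-06), and the lower genes were Fgf8 and its target Spry4. Of 9 tested genes of the dorsal neural tube and neural crest, where Pax3 and Pax7 act, 5 were lower and 2 higher (median −1.66). The higher genes were Zic1 (5.13, SE 0.31, limma adjusted p = 1.4e-15) and Lmx1a, both of the dorsal neural tube. Msx1, a homeobox gene of dorsal neural tube and facial mesenchyme, was lower (−2.96, SE 0.23, limma adjusted p = 5.7e-13). Of 10 genes of the Pax1 and Pax9 mesenchyme, 6 were lower and Uncx, a homeobox gene of sclerotome and of the developing brain, was higher (median −1.61). Barx1 (−4.94, SE 0.21, limma adjusted p = 1.5e-19) and Osr2 (−3.39, SE 0.25, limma adjusted p = 2.2e-13), which act in tooth and palate mesenchyme, led.

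Of 7 muscle progenitor genes downstream of Pax3 and Pax7, Myog and Eya1 were lower and Cxcr4 higher in neural tissue relative to facial tissue (median −0.62). Between facial tissue and limb 5 of these 7 were lower, Lbx1, Met, Myf5, Myod1 and Myog, and Eya1 was higher (median −1.44, against 0.02 over all tested genes). Pax3 itself was higher in facial tissue in that comparison. The Groucho family includes corepressors that bind the octapeptide of several Pax proteins. Of 6 genes of this family, Tle2 was lower in neural than in facial tissue (−1.26, SE 0.20, limma adjusted p = 3.2e-06). Lists of these sizes describe the named genes and were not tested as sets.

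The genes most like each tested member over the 35 libraries were ranked by Pearson's r of log2(FPKM + 1), given as a description, since the libraries share tissues. For Pax6 they were Fezf2, a forebrain zinc finger factor (r = 0.99), Nuak2 (0.99) and Pde1b (0.98). For Pax9 they were the neuregulin receptor Erbb3 (r = 0.94), Fam38b (0.92) and Eya4 (0.91). For Pax1 they were the ligand Wnt10b (r = 0.89) and Dnm3 and the Wnt effector Lef1 (0.86 each). For Pax3 they were the Iroquois factors Irx3 (r = 0.89) and Irx5 (0.83) and Fam65c (0.82). For Pax7 they were the homeobox gene Dmbx1 (r = 0.87), Dmrt3 (0.86) and Pawr (0.85). None of these 15 genes was another Pax gene, and between members r was highest for Pax5 and Pax8 (0.72), both at low levels. It was 0.35 for Pax1 and Pax9 and 0.40 for Pax3 and Pax7.

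Within a tissue, several members differed between libraries in a way that followed the replicate number. In MXP Pax1 had 7.39 and 5.69 FPKM in replicates 1 and 5, and 53.7, 37.3 and 51.6 FPKM in replicates 2, 3 and 6. In MNP it had 2.15, 0.407 and 1.58 FPKM in replicates 1, 4 and 5, and 19.2, 8.22 and 8.72 FPKM in replicates 2, 3 and 6. The values of each set do not overlap in either prominence. In limb the direction was the other one, with 7.78, 7.08 and 6.38 FPKM of Pax1 in replicates 1, 4 and 5, and 0.351, 0.0942 and 0.725 FPKM in replicates 2, 3 and 6.

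Pax3 behaved alike. In MXP it had 9.77 and 11.8 FPKM in replicates 1 and 5, and 22.7 to 25.1 FPKM in replicates 2, 3 and 6. In limb it had 2.82 to 3.16 FPKM in replicates 1, 4 and 5, and 1.00 to 1.36 FPKM in replicates 2, 3 and 6. Pax9 in FNP had 13.6 to 16.2 FPKM in replicates 1, 4 and 5, and 25.2 to 33.4 FPKM in replicates 2, 3 and 6, and in MXP its values overlapped. In MNP it had 2.56 to 4.40 FPKM and 9.75 to 16.4 FPKM in the same order. Unlike Pax1 and Pax3, Pax9 ran the same way in limb, with 0.268 to 1.35 FPKM in replicates 1, 4 and 5, and 2.39 to 5.95 FPKM in replicates 2, 3 and 6. Of other genes, Lin28a, an RNA-binding protein of early progenitors, moved with the same libraries. It had 2.31, 6.02 and 3.16 FPKM in FNP replicates 1, 4 and 5, and 0.231 to 0.434 FPKM in replicates 2, 3 and 6. In limb it had 7.88 to 10.8 FPKM in replicates 1, 4 and 5, and 1.42 to 2.65 FPKM in replicates 2, 3 and 6. The split of the numbers and Lin28a were chosen after these values were seen, so no test is given, and what separates the libraries was not tested. The sets do not match the sequencing runs, since replicates 4, 5 and 6 came mostly from the same run. With the replicate number as a block in the fit, no call of a member changed. The block is the same shift in every tissue, so it cannot take up a pattern that runs in opposite directions in MXP and limb.

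**Figure D5:**
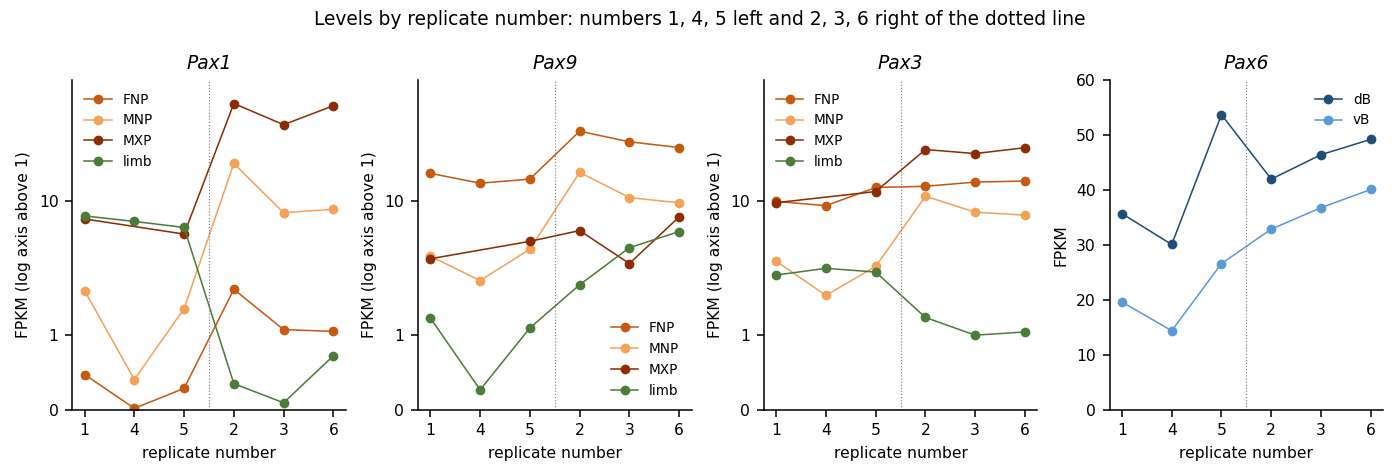
Pax1, Pax9 and Pax3 in FNP, MNP, MXP and limb, and Pax6 in dB and vB, in FPKM (vertical axis, logarithmic above 1 FPKM for the first 3 panels and linear for Pax6), by replicate number in an order chosen after the values were seen. Pax1 is lower left of the dotted line in MXP (5.69 and 7.39 FPKM) and higher left of it in limb (6.38 to 7.78 FPKM).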

How the data were processed

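RNA-seq of 35 libraries was used, paired-end with 75-base reads by the methods. The authors deposited Cufflinks estimates per transcript in FPKM, with a coverage value (the signal column), which served here only to describe depth. Tools named in the submitters' notes are Bowtie2 and DESeq2, with the build mm10. For Cufflinks itself the aligner and version were not given in the sources used here. The tables hold no counts, so the plan for counts was not followed and no interval for single values is given. Of 59120 transcripts per table, 65 had no readable FPKM, and 59055 were used. No Pax transcript had a failed estimate. In the libraries numbered 1, short transcripts (under 200 bases) took 19.1 to 39.2% of the FPKM total, against 0.653 to 10.3% elsewhere.

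Sums of FPKM per gene were put on the scale log2(FPKM + 1). The model had 1 mean per tissue and was run with limma 3.58.1 in R 4.3.3 (options trend and robust) over the 13934 genes whose mean reached 1 FPKM in some tissue. Neural and facial tissue are means of tissue means. P-values were Benjamini-Hochberg adjusted within each of 18 contrasts. The fit was tested on simulated data of 13934 genes for the contrast of neural with facial tissue: it called 98 of 100 genes shifted by 1.5 on the log2 scale, 99 of 100 shifted by 2.5, and 1 gene that was not shifted. The simulated noise was independent between libraries and had the same spread in every tissue. Real libraries of the same number deviated together, so these counts check the code and do not give error rates for the Pax calls.

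The members and lists were chosen with earlier results of these data known, and 1 gene of these lists is not reported here. Genes named were the members, the 3 genes most like each tested member, and of each list the 2 called genes with the largest fold change between neural and facial tissue and any gene of a count up to 3. Nkx2-1, Lbx1, Lin28a and Hbb-b1 were named beside results after their values were seen. So were En1, En2, Fgf8 and Wnt1 in the brain libraries, Irx3 and Twist1 in vB, and the mesenchyme and dorsal genes of dB against vB. Same-numbered libraries deviated together over all tested genes other than Pax (mean r = 0.32, against −0.07 for different numbers), and every such pair had r over 0.1 in 8 of the 15 pairs of tissues. Transcripts were matched to GENCODE M21 by their ends and length. Python 3.11.15 with pandas 2.3.3 handled the tables. Replicate samples are separate pools by the methods.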

Additional observations from a re-analysis of the deposited data

Results flagged for a closer look

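Of 46 groups of a member in a tissue with any spread, 9 had a highest library that stood apart from the others by Dixon's criterion at 95%. Chance flags about 1 in 20 where values are normally distributed. FPKM cannot fall below 0 and several groups lie near it, so that rate does not apply here and no excess is claimed. The values of the members in vB were 7.41 FPKM for Pax3 and 5.59 FPKM for Pax7, both in replicate 5, with the next library at 2.66 and 1.07 FPKM. In dB replicate 1 Pax5 had 2.81 FPKM and Pax2 0.553 FPKM, with the next at 0.703 and 0.226 FPKM, and in dB replicate 6 Pax1 had 0.318 FPKM, with the next at 0.118 FPKM. Pax6 had 0.534 FPKM in limb replicate 1, with the next at 0.129 FPKM, and Nkx2-1 in that library was 2.87 FPKM. The others were Pax5 in FNP replicate 5 (0.292 FPKM) and limb replicate 2 (0.0274 FPKM, all others listed at 0) and Pax2 in MNP replicate 6 (0.117 FPKM).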

How the results depend on the processing

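Counts of called members were recomputed with 0.1 added in place of 1, with no filter on low values, with quantile normalization, without transcripts under 200 bases, with a block for the replicate number or for the run, within replicates 1 to 3 or 4 to 6, and without single libraries. With 0.1 added the count was 4 for facial tissue against limb (Pax9, Pax3, Pax7 and Pax6), 2 for dB against vB (Pax3 and Pax7), 5 for neural against facial tissue (Pax7 gained), 2 for FNP against MNP and 3 for FNP against MXP (Pax9 lost from both). For MNP against MXP it was 1, but this was Pax6 (−1.85, limma adjusted p = 0.00043) in place of Pax3. For MNP against MXP it was 0 with no filter, where Pax3 had a limma adjusted p of 0.052, and 2 with quantile normalization (Pax1 and Pax3). Within replicates 1 to 3 it was 2 for dB against vB, 0 for MNP against MXP, 3 for neural tissue against limb, 2 for FNP against MNP and 6 for any pair (Pax5 gained). Within replicates 4 to 6 it was 1 for facial tissue against limb, 0 for dB against vB, 1 for FNP against MXP, 0 for MNP against MXP, 3 for neural against facial tissue, 3 for neural tissue against limb and 2 for FNP against MNP. Without vB replicates 1, 4 and 5 it was 2 for dB against vB, and without FNP replicates 4 and 5 and MXP replicate 5 it was 2 for MNP against MXP, both chosen after the data were seen. Without single libraries the count was 5 for any pair of tissues, 4 for neural against facial tissue, 4 for neural tissue against limb, 2 for facial tissue against limb, 1 to 2 for dB against vB, 3 to 4 for FNP against MNP, 4 for FNP against MXP and 0 to 2 for MNP against MXP. With the replicate number as a block the counts were 5 for any pair, 4, 4 and 2 between neural, facial and limb tissue, 1 for dB against vB, 3 and 4 for FNP against MNP and MXP, and 1 for MNP against MXP, and all 90 results of single members were on the same side of the threshold. The same held for the run as a block and without short transcripts. No direction of a called difference reversed under any of these settings. Where a count was 0, 2 or 3 members had an unadjusted limma p under 0.05. The cause of the changed counts was not tested. Levels under 1 FPKM, as of Pax2, Pax5 and Pax8, are the least certain.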
